A study of Caenorhabditis elegans with 2 samples.

Results

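Several-peak regions are stretches of the C. elegans genome in which 2 or more ChIP-seq peaks of the tagged chromatin protein HMG-1.1 overlapped each other by at least 1 bp. They were selected on the peak intervals of the list that the depositors name conservative, which holds 4277 peaks called on both replicates together. Joining touching peaks left 4008 regions, of which 262 (6.54%, 95% Wilson interval 5.81 to 7.34) held several peaks. These 262 regions contain 531 peaks, 12.4% of the list. In 255 of them 2 peaks touched, and in the other 7 there were 3. The remaining 3746 regions held a single peak and serve as the comparison.

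Chromatin came from whole fourth-stage larvae of strain RW12311, aged 48 hours and synchronised by hatching into starvation after bleaching. In this strain the endogenous hmg-1.1 gene on chromosome II carries a CRISPR insertion of TY1, EGFP and 3xFLAG at its own locus, and an antibody against GFP was used for the precipitation. All animals share that insertion, and whole larvae pool the tissues, so no tissue can be told apart. The labels number 2 biological replicates of this single group, so no condition can be compared, and the replicates' own lists are the check between samples. Sonicated fragments were 200 to 800 bp long per the labels, and the usual distance between summits described here lies near the lower end of that range. Read counts were not part of these lists, and the depth behind each peak is unknown.

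HMG box proteins are abundant architectural chromatin proteins. They insert into the minor groove and bend DNA, with little demand on its base sequence, and the mammalian relatives HMGB1 and HMGB2 help transcription factors and nucleosome remodellers to act on chromatin. A peak in such an experiment is an interval of enriched fragments, and its summit is the position of highest enrichment inside that interval. Signal below is the depositors' enrichment value of a peak, on a scale that is not stated, and it is compared within a list only.

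The following stretches cover both summits of 6 of these regions with 40 bp to either side, on the plus strand of ce11. The 21 bases centred on each summit are in capitals. They are shown because they hold the strongest members (sls-2.1, Y41G9A.17 and C18A11.13), a related gene with several summits in both replicates (sls-2.2), the most uneven member (pks-1) and a protein-coding gene with several summits in both replicates (bet-2).
sls-2.1, chrII:5844781-5845064: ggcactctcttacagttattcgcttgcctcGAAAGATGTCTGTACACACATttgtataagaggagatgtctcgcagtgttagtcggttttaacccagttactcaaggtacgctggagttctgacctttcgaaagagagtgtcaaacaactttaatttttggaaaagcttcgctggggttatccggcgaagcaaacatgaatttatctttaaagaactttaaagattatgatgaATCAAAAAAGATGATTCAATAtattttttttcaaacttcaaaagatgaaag
sls-2.2, chrII:5543539-5543829: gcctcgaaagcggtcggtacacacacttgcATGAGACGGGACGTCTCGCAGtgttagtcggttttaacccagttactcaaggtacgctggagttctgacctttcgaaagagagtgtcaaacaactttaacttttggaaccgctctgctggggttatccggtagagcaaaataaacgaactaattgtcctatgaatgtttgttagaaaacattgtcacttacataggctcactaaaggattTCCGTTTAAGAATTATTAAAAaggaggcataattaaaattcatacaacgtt
Y41G9A.17, chrX:2997072-2997351: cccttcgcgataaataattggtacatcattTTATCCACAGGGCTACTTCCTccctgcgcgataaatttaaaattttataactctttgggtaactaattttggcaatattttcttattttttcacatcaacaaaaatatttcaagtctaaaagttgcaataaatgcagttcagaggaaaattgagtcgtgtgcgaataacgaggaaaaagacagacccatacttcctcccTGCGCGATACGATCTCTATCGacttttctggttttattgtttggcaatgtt
C18A11.13, chrX:8036422-8036701: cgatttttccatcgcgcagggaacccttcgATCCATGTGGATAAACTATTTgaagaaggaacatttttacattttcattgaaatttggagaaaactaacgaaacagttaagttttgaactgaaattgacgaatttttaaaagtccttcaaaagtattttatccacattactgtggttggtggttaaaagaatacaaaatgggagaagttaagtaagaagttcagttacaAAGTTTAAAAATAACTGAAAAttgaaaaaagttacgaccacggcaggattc
pks-1, chrX:5429499-5429783: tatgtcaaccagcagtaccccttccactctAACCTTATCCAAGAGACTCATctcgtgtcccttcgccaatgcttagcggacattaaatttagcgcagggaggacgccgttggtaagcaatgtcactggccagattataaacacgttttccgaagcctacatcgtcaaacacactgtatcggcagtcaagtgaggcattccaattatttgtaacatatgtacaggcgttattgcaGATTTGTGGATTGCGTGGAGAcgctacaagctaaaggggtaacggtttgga
bet-2, chrX:10568719-10568999: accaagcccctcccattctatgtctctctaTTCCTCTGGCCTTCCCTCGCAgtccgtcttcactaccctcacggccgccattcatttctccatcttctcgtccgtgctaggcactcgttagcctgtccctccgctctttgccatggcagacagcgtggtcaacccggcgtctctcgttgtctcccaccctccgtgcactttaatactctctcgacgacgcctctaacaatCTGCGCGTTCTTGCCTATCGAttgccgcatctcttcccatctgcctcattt

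Both sls-2 stretches hold an SL2 RNA gene, which encodes a small RNA whose leader is trans-spliced onto messages from downstream genes of operons. They share a run of 87 identical letters. sls-2.1 (WBGene00004833, II 5844865 to 5844974) lay between its summits, with the stronger at -44 bp from the gene start and the weaker at 159 bp. sls-2.2 (WBGene00004834, II 5543598 to 5543707) did the same, with summits at -19 and 191 bp. The letters GCGCAGGG, the core of the MEX motif known from recruitment sites of the X chromosome dosage compensation complex, occur in the Y41G9A.17 stretch on the minus strand. The 2 matches are centred at 15 bp from the stronger summit and at -9 bp from the weaker. In C18A11.13 they lie at -23 bp from the stronger summit, and in pks-1 at 55 bp from it. Counted on both strands within 50 bp of each summit, these letters stood at the strongest summit of 2 of the 262 regions (0.763%) and at 19 of 3746 single-peak summits (0.507%), against 0.0200% of windows placed every 10 kb along the genome. Both of the 2 lie on the X chromosome, where 17 of 822 single-peak summits (2.07%) held them. The bet-2 stretch is a pyrimidine-rich sequence of 55.9% G+C.

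Neighbouring summits were spaced almost uniformly. The distance between them had a minimum of 199 bp, a lower quartile of 200 bp, a median of 203 bp, an upper quartile of 209 bp and a maximum of 541 bp over 269 neighbouring pairs. In 44 pairs it was exactly 199 bp, and in 204 (75.8%) it was 199 to 209 bp. Only 3 pairs were 300 bp apart or more. The smallest distance between any 2 summits was also 199 bp in each of the other lists used, down to the ranked list of both replicates with 84052 peaks. In the replicates' own thresholded lists the median spacing of touching peaks was 202 bp each. The peak intervals chose these regions, so spacing and width are described without a test.

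**Figure D1:**
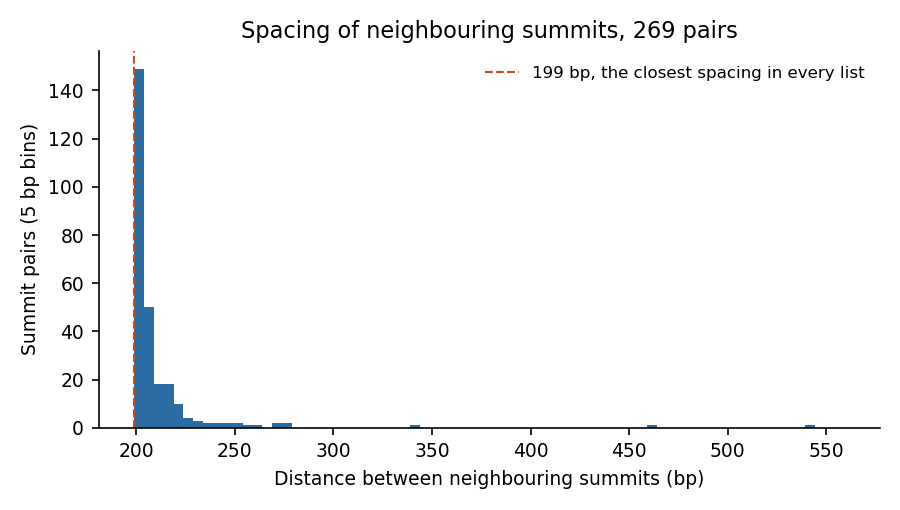
Histogram of the distance in bp between neighbouring summits (x axis) against the number of summit pairs in 5 bp bins (y axis) for the 269 pairs of the 262 regions. The dashed line marks 199 bp, and 204 pairs lie at 199 to 209 bp.

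Widths repeated across the list too. The most frequent peak width was 376 bp, in 82.3% of member peaks and 78.6% of single peaks, and in 205 regions every peak had it. The merged regions had a median width of 578 bp (range 330 to 1103), against 376 bp for single-peak regions. Neighbouring peaks overlapped by a median of 173 bp. Just inside the rule, the smallest overlaps were 5, 12 and 18 bp, and just outside it the smallest gaps were 17, 18 and 25 bp. There were 10 pairs left apart by a gap of up to 100 bp. In 26 regions the touching peaks were given one and the same interval and differed in their summit alone.

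The summits of a region were unequal. The strongest summit had a median signal of 106 (36.1 to 840), near the 116 of single-peak regions. The weakest had a median of 15 (2.04 to 366). Its signal was a median of 13.1% of the strongest, with quartiles of 6.56 and 27.6%. It was under 10% in 98 regions, at least 50% in 25 and at least 75% in 6. The replicates' own several-peak regions had medians of 12.9 and 13.2%. Weak peaks of the conservative list lay almost entirely in these regions: 160 of its 162 peaks with a signal under 20 were members.

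**Figure D2:**
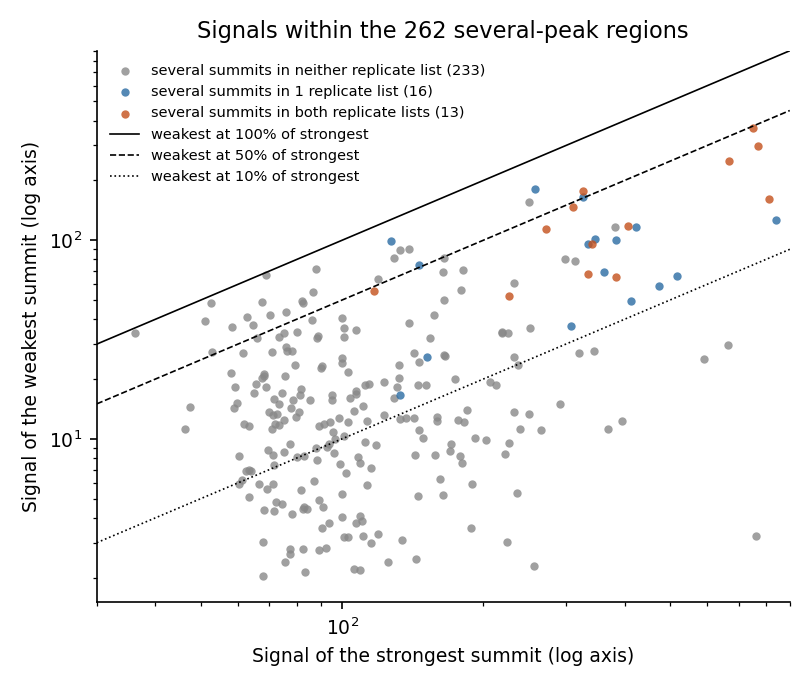
Signal of the strongest summit (x axis, log) against that of the weakest (y axis, log) for the 262 regions, with lines at 100, 50 and 10%. The 13 regions with several summits in both replicates' thresholded lists have a weakest signal of at least 52.3, while 233 regions have several in neither.

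The deposited q-value and IDR score describe these weak summits further. The q-value was above 0.05 at 236 of the 262 weakest summits (90.1%), at 50 strongest summits (19.1%) and at 411 of 3746 single peaks (11.0%). In 26 regions both the strongest and the weakest summit had a q-value of at most 0.05. The list itself was thresholded on the irreproducible discovery rate (IDR), scored from 830 up to a ceiling of 1000. In 230 regions the touching peaks had the same IDR score. Where at least 1 peak was under the ceiling, which held for 74 regions, the score was still the same in 42. Among neighbouring single peaks under the ceiling it was the same in 4 of 699 pairs (0.572%).

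The weaker summit was almost always the one at the higher genome coordinate. This held for 259 of the 262 regions (98.9%, 96.7 to 99.6) and for 261 of 269 neighbouring pairs (97.0%, 94.2 to 98.5). In the replicates' thresholded lists the share was 99.1% of 230 pairs and 99.7% of 314 pairs. In the ranked list of both replicates, 79.3% of 25193 touching pairs had this order, rising from 75.1% where the higher IDR score was under 100 to 97.1% where it was at least 830. Among the 83 regions at a protein-coding gene start, the weaker summit lay upstream of the stronger in 49 of 49 with the nearest gene on the minus strand and in 0 of 34 on the plus strand. What sets this order and the 199 bp distance was not tested.

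**Figure D3:**
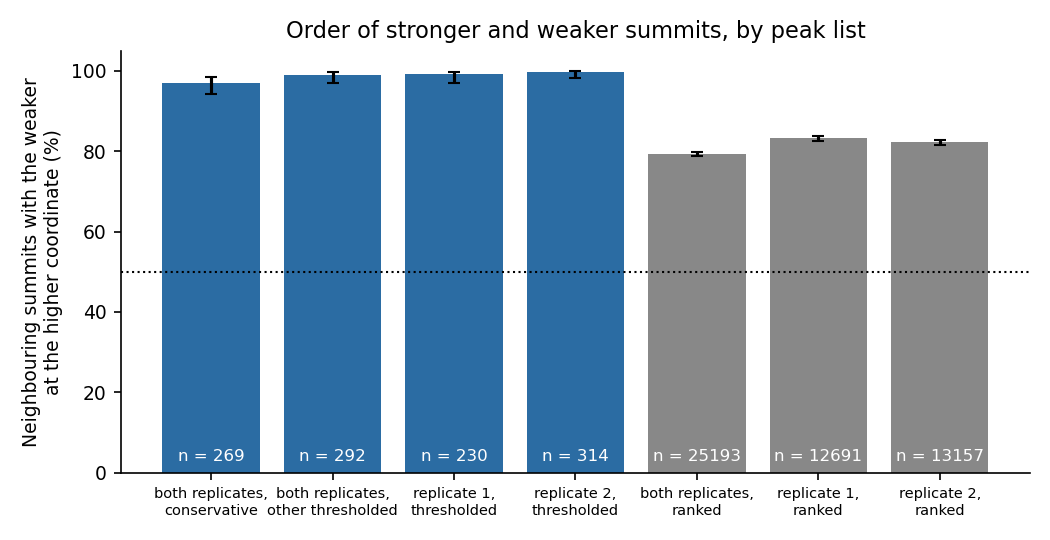
Percent of touching neighbouring summits whose weaker member has the higher genome coordinate (y axis), by peak list (x axis), with 95% Wilson intervals as error bars and the number of pairs in each bar. The 4 thresholded lists lie between 97.0 and 99.7%, the 3 ranked lists between 79.3 and 83.2%, and the dotted line marks 50%.

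The same one-sidedness appeared around single peaks. A summit of the ranked list lay 199 to 260 bp from the strongest summit on the higher-coordinate side in 257 of 262 several-peak regions and in 797 of 3746 single-peak regions (21.3%). On the lower side it did so in 2 and in 9 (0.240%). Several-peak regions have a touching neighbour by the rule, so their count over both sides is largely set in advance. The side on which it lay was not part of the rule. On the higher side, the neighbours of single peaks had a median signal of 18.3% of their peak, against 12.9% in several-peak regions. Their median IDR score was 63.0, against 1000 for the neighbours within several-peak regions. That contrast in score is set largely by the rule, since a neighbour that reached the floor of 830 would usually enter the list. The highest score among the neighbours of single peaks was 1000, so not all were under that floor.

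Most of these regions did not have several summits in a replicate's own list. Replicate 1 had 2 or more thresholded summits inside 17 regions (6.49%, 4.09 to 10.1), against 77 of 3746 single-peak regions (2.06%) and 2.35% of all regions. Replicate 2 had them inside 25 (9.54%, 6.55 to 13.7), against 85 (2.27%) and 2.74% of all regions. Both replicates had them inside 13 (4.96%, 2.92 to 8.30), against 5 single-peak regions (0.133%) and 0.449% of all. In 233 regions neither replicate had several. A region made of touching peaks is wider by the rule, and a 376 bp region has little room for 2 summits at least 199 bp apart, so these shares cannot be set against those of single-peak regions. Windows of 1 width, 300 bp to each side of the strongest summit, were therefore compared as well, a choice made after seeing the data. In these, replicate 1 had several summits at 17 several-peak regions (6.49%, 4.09 to 10.1) and at 198 single-peak regions (5.29%, 4.61 to 6.05), with 5.36% over all. Replicate 2 had them at 22 (8.40%, 5.61 to 12.4) and at 257 (6.86%, 6.09 to 7.72), with 6.96% over all. For each replicate alone the 2 intervals overlap. Both replicates had them at 11 (4.20%, 2.36 to 7.36) and at 27 (0.721%, 0.496 to 1.05), with 0.948% over all, and there the intervals do not overlap. The joint list was made from the same reads as the replicates' lists, so this is a description and no independent test. The shares depend on the list: in the other thresholded list of both replicates they were 13.9 and 24.0% for replicates 1 and 2, and among the 29 regions left by a q-value limit of 0.05 they were 41.4 and 65.5%.

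In the other direction, each replicate's list had several-peak regions of its own, most of which the joint list did not split. Of the 227 in replicate 1, 210 (92.5%) overlapped a region of the conservative list and 15 (6.61%) a several-peak one. Of the 308 in replicate 2, 271 (88.0%) and 21 (6.82%) did. These last shares are near those of the replicates' single-peak regions, of which 5.84 and 5.28% overlapped a several-peak region of the conservative list. Between the replicates, 33 overlapped, which is 14.5% of the 227 and 10.7% of the 308. Of single-peak regions, 7.75% in replicate 1 and 6.10% in replicate 2 overlapped a several-peak region of the other, and wider regions have more room to overlap. Any region of the other replicate was overlapped by 177 several-peak regions of replicate 1 (78.0%) and 199 of replicate 2 (64.6%), against 82.6 and 71.6% of single-peak ones.

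At the level of single summits the strongest and weakest differed. Replicate 1 had a thresholded summit within 50 bp of 111 strongest summits (42.4%) and of 13 weakest (4.96%). Replicate 2 had one within 50 bp of 114 (43.5%) and of 22 (8.40%). At single-peak summits the shares were 52.6 and 59.2%, above those of strongest summits. Neither had one near 236 of the 262 weakest. In the longer ranked lists of the replicates, 197 weakest summits (75.2%) still had no counterpart within 50 bp in either. There, strongest summits had one in 71.8 and 72.5% of regions, and single-peak summits in 87.7 and 88.7%. A thresholded summit of both replicates lay somewhere inside 112 regions (42.7%), against 1811 single-peak regions (48.3%) and 48.0% of all, and 90 regions (34.4%) had none from either.

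Several summits in a replicate's list were more frequent where the weaker summit was stronger. The signal used here is that of the joint list, made from the same reads as the replicates' lists. A stronger summit therefore passes a replicate's threshold more readily, and these counts are a description only. Of the 16 regions whose weakest signal was at least 100, 14 had several summits in at least 1 replicate's list. The count was 11 of 26 at 50 to under 100, 3 of 61 at 20 to under 50 and 1 of 159 below 20. By the strongest summit it was 21 of 30 regions with a signal of at least 300 and 8 of the other 232. By evenness it was 5 of the 25 regions with a weakest summit of at least 50% of the strongest and 0 of the 98 with one under 10%.

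Of 4 several-peak regions at SL2 RNA genes, 3 were among the strongest members. Single-peak regions at SL2 genes were not counted apart from their class. The small nuclear RNA class, which includes the SL2 genes in the annotation, lay within 500 bp of the strongest summit in 6 several-peak and 16 single-peak regions. Thus 27.3% of its regions held several peaks against 6.54% of all, a share that rests on few regions and has no interval here. At sls-2.1 (II 5844602 to 5845181) the signals were 840 and 126. Replicate 1 had 1 summit there, with a signal of 360, and replicate 2 had 2, with 457 and 23.0. At sls-2.2 (II 5543397 to 5544059) they were 668 and 251, with 314 and 86.0 in replicate 1 and 346 and 146 in replicate 2. At sls-2.4 (I 4171968 to 4172535) they were 752 and 366, with 355 and 116 in replicate 1 and 392 and 108 in replicate 2. At these 3 the gene is on the plus strand and 110 bp long, and it lay between the summits, with the stronger 19 to 44 bp before its start and the weaker 159 to 191 bp after it. SL2 genes are near-copies of each other, so their regions are not independent members. At the stronger sls-2.2 summit 74.3% of the 32-mers occur once in the genome, against 100% at the other 5 summits. The fourth, sls-2.15 (WBGene00004847, III 11091010 to 11091121), was weaker and placed differently. Its signals were 82.4 and 2.79, neither replicate listed a summit there, and the stronger summit lay inside the gene, at 89 bp, with the weaker at 290 bp. A further snRNA gene, R07E5.16 (III 10989679 to 10989780), had signals of 666 and 29.7 and 1 summit in each replicate.

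Other non-coding RNA genes had lower shares. Of the regions near tRNA genes, which carry their promoter inside the transcribed part, 13 were several-peak and 303 single-peak (4.11% of them). The strongest of these lay at WBGene00022939 and the ncRNA C18A11.13 (X 8036225 to 8036878), with signals of 769 and 299, of 321 and 103 in replicate 1, and of 382 and 133 in replicate 2. The gap between several-peak and single-peak regions in the share near a tRNA gene was -3.13 points (95% Newcombe interval -5.36 to 0.316), which includes 0. Several-peak regions made up 4.72% of the regions near snoRNA genes (5 regions) and 5.13% of those near miRNA genes (2 regions). One of the miRNA regions, at cel-mir-52 (IV 14033013 to 14034115), was the widest of all at 1103 bp. Its 3 summits had signals of 142, 227 and 52.3, and both replicates had 2 summits in it.

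Some of the 13 regions with several summits in both replicates lay upstream of or inside protein-coding genes. In 2 of the 13 (15.4%) the strongest summit was within 500 bp of an annotated start. That share was 31.7% of the 262 several-peak regions and 39.7% of all regions. Upstream of bet-2 (X 10568454 to 10569094), which encodes a bromodomain protein, the signals were 406 and 118, with 165 and 82.6 in replicate 1 and 203 and 49.6 in replicate 2. Upstream of eel-1 (IV 3050338 to 3050976), an E3 ubiquitin ligase gene, 3 summits had signals of 383, 74.4 and 65.5, and each replicate had 2. In the start region of gsa-1 (I 1068086 to 1068712), which encodes the stimulatory G protein alpha subunit, they were 334 and 67.5. Inside egl-30 (I 1836589 to 1837194), the gene of the Gq alpha subunit, they were 341 and 96.2. In an intron of let-526 (I 5312812 to 5313393), a subunit gene of a SWI/SNF chromatin remodeller, they were 311 and 147. In all of these regions replicates 1 and 2 each listed 2 summits. An intron of Y41G9A.17 (X 2996867 to 2997462) had 814 and 161, with 377 and 41.5 in replicate 1 and 412 and 78.5 in replicate 2.

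The uneven extreme differed. In a coding exon of pks-1 (X 5429341 to 5429787), a polyketide synthase gene, the signals were 763 and 3.25, so the weaker was 0.426% of the stronger. Replicate 1 had a single summit of 345 and replicate 2 a single one of 413. In an intron of nhr-19, a nuclear hormone receptor gene, they were 256 and 2.28 (0.891%), again with 1 summit in each replicate. Upstream of F56C9.10 they were 225 and 3.04 (1.35%). The 4 most even regions lay in an intron of lit-1, a Nemo-like kinase gene of the Wnt pathway (68.8 and 67.0, 97.4%), outside annotated genes at both summits on chromosome I (36.1 and 34.3), in an intron of the kinase gene mnk-1 (52.6 and 48.2) and at ssup-72 (88.0 and 72.0). None of these 4 regions had several summits in either replicate. The next most even region, at T28F4.4 (127 and 99.5), had several in replicate 1 and a single summit in replicate 2.

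Regions of 3 peaks differed in their weakest summit, from 114 at F16A11.13 to 9.44 at cct-5. Besides eel-1 and cel-mir-52, F16A11.13 (I 9381073 to 9381973) had signals of 272, 171 and 114, and a region inside the ncRNA gene C30E1.9 on the X chromosome (16930815 to 16931764) had 106, 117 and 55.8. These 4 had 2 summits in each replicate. At the chaperonin gene cct-5 (III 4505824 to 4506634) the signals were 93.6, 9.44 and 15.5, and at the kinase gene mak-1 (II 8746243 to 8747087) they were 46.2, 11.2 and 30.2. The seventh, on the X chromosome (6253841 to 6254761), had 56.3, 103 and 12.2. Neither replicate had more than 1 summit in these 3.

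Several-peak regions lay at protein-coding gene starts less often than single-peak regions. The strongest summit was within 500 bp of an annotated start in 83 of 262 (31.7%, 26.3 to 37.5), against 1509 of 3746 (40.3%, 38.7 to 41.9) and 39.7% of all regions. The difference was -8.60 points (95% Newcombe interval -14.2 to -2.54). It was -5.55 points in the list of replicate 2 alone (-11.1 to 0.315) and -8.52 in that of replicate 1 (-14.7 to -1.84). With a distance of 250 bp it was -4.38 (-9.28 to 1.25). Annotated starts of trans-spliced worm genes can lie downstream of the promoter, which bears on both kinds of region.

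The annotation under the summits shifted with this. The strongest summit lay in the 500 bp upstream of a gene in 67 regions (25.6%), against 35.0% of single-peak regions, a difference of -9.42 points (-14.6 to -3.62). It lay in an intron in 66 (25.2%), against 18.0%, a difference of 7.20 points (2.17 to 12.9). For the weakest summit the upstream share was 17.9% and that of coding exons 9.54%, against 3.07% of single-peak summits, a difference of 6.47 points (3.42 to 10.7). Neighbouring summits lay a median of 203 bp apart, and annotation at that distance from single-peak summits was not counted. The shares of the weakest summit are therefore not like for like with those of single-peak summits. In 179 regions both summits fell in the same class, most often 66 times in none of the named classes, 53 times in introns and 39 times upstream. In all, 26 such differences between several-peak and single-peak regions were computed, those of the weakest summit included. Of their intervals, 10 left out 0, and the intervals were not adjusted for the number of differences.

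**Figure D4:**
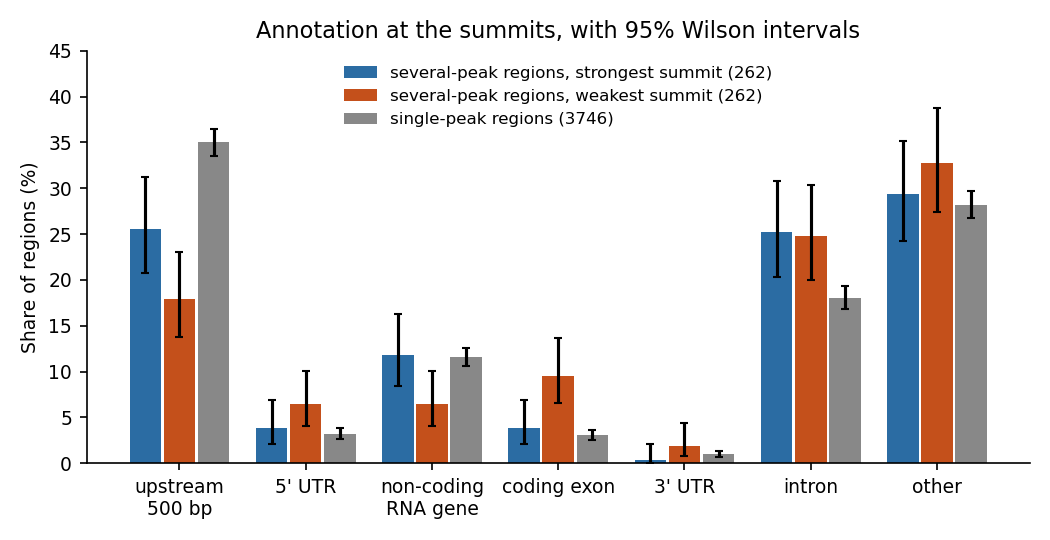
Percent of regions (y axis) by the annotation under the summit (x axis), for the strongest and the weakest summit of the 262 several-peak regions and the summit of the 3746 single-peak regions, with 95% Wilson intervals as error bars. The upstream share is 35.0% for single peaks, 25.6% for strongest and 17.9% for weakest summits, and the coding exon share is 9.54% at weakest summits.

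Around starts, most regions had both summits upstream or the start between them. Of the 83 regions at a start, 45 had both summits upstream, 24 had the start between them and 14 had both downstream. The strongest summit lay a median of -124 bp from the start, against -153 bp in single-peak regions, and 66 of 83 (79.5%) lay upstream, against 84.3%. Divergent starts on both strands flanked 13 regions (4.96%) and 7.47% of single-peak regions, a difference of -2.51 points (-4.74 to 0.923).

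By chromosome, 60 several-peak regions were on I, 44 on II, 36 on III, 36 on IV, 30 on V and 56 on X. The X share was 21.4%, against 21.9% of single-peak regions, a difference of -0.569 points (-5.30 to 4.94). In the list of replicate 2 alone the X difference was 6.13 points (1.11 to 11.6), in the opposite direction. On chromosome I the share was 22.9% against 17.5%, a difference of 5.42 points (0.577 to 11.0). That difference was 0.580 points in the list of replicate 2 (-3.66 to 5.52) and -2.18 in that of replicate 1 (-6.69 to 3.36), so neither chromosome difference held across the lists.

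Gene groups chosen by name held few several-peak regions. At all protein-coding starts they made up 5.21% of the 1592 regions. A region was counted for a group where its strongest summit lay within 500 bp of a gene start. The several-peak regions inside nhr-19 and cct-5 lie farther from a start of these genes and are not counted. At the starts of ribosomal protein genes named rpl or rps there were 2 several-peak regions beside 54 single-peak ones (3.57%). These were rpl-1 with signals of 165 and 81.4 and rpl-7 with 59.1 and 18.3. At the starts of nuclear hormone receptor genes there were 2 beside 16 (11.1%), at nhr-78 (82.9 and 4.51) and nhr-86 (68.1 and 21.1). Among the genes those names selected, there were none beside 17 single-peak regions at starts of translation factor genes and 18 at those of respiratory chain genes. The same held beside 13 at chaperone gene starts and 9 at proteasome gene starts. The names missed the respiratory chain genes ndua-1 and ndua-2, each with a several-peak region whose strongest summit lay within 500 bp of its start. The region at ndua-2 also lay at dnj-29, which was not among the chaperone genes counted. The ribosomal protein gene rla-2 was missed as well. The strongest summit of a several-peak region (71.4 and 5.93) lay within 500 bp of its start. Counts this small do not set a group apart from the 5.21%. No several-peak region lay within 2000 bp of an hmg gene. Single-peak regions that near were few too, with 4 at hmg-1.1 itself and at most 2 at any other hmg gene. With 6.54% of all regions holding several peaks, so few regions do not set the hmg genes apart.

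Base composition separated the summits of a region. In windows of 50 bp to each side, G+C averaged 48.3% ± 7.68 (SD, n = 262) at the strongest summit, 40.5% ± 9.56 at the weakest and 42.8% ± 9.69 at the midpoint between neighbours. At single-peak summits it was 48.4% ± 7.60 (n = 3746), and in windows placed every 10 kb 35.5%. The strongest summit had the higher G+C in 192 of 262 regions (73.3%, 67.6 to 78.3), with 8 ties. The weakest summit was in turn richer than the position at the same distance on the other side, which averaged 37.0% (n = 255 regions of 2 peaks). The mean excess was 3.49 points ± 11.1 (SD), and the weakest summit was the richer in 161 (63.1%, 57.1 to 68.8) and the poorer in 83. Windows of 50 bp to each side of 2 summits of a region do not overlap at these distances.

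Short sequence features differed between the summits. The letters GAGAGA, on either strand, stood within 50 bp of 80 strongest summits (30.5%, 25.3 to 36.4), close to the 29.0% of single-peak summits. They stood at 39 weakest summits (14.9%, 11.1 to 19.7) and at 12.9% of positions opposite the weakest summit. The share was 9.01% at positions 203 bp to either side of single-peak summits and 4.99% in genome windows. Runs of 8 T or 8 A were at 4.58% of strongest and 9.92% of weakest summits, against 4.06% of single-peak summits and 12.7% of genome windows. At positions opposite the weakest summit the share was 13.7%, and 203 bp to either side of single-peak summits it was 13.1%. Weakest summits thus held no more runs than other positions at that distance. At least 95% of the 32-mers occurred once in the genome at 88.2% of strongest and 93.5% of weakest summits, against 87.4% of single-peak summits.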

How the data were processed

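ChIP-seq peak lists of 2 replicates were analysed as deposited, on ce11. They were made from alignments of the replicates and of a control, per the deposited file listing. Which aligner and peak caller were used is not given in the sources used here. As deposited, the score is a scaled IDR value and the signal an enrichment for each peak. The q-value and global IDR were deposited by the authors as −log10 values. The summit offset was turned into a 1-based position.

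Peaks of the conservative list that overlap by at least 1 bp on a chromosome were merged. A replicate summit counts where it lies inside the merged region. Gene starts are the outermost 5' ends in Ensembl release 115, within 500 bp. Each summit took the first fitting class of: upstream 500 bp, 5' UTR, non-coding RNA gene, coding exon, 3' UTR, intron, other. Sequence came from the NCBI assembly of the same build. Shares carry 95% Wilson intervals and their differences Newcombe intervals, which cover counting error over regions only, and neighbouring regions are not independent. No p-values were computed. Functions were tested on simulated peaks, with Python 3.11.15, NumPy 2.4.6 and pandas 2.3.3.

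Names come from protein-coding starts within 500 bp, failing that from non-coding genes at that distance, failing that from the gene holding the strongest summit. Those named are drawn from the 20 strongest, those of 3 peaks, the 5 most even and most uneven, and up to 4 of each gene group. The regions at gsa-1, egl-30, let-526 and sls-2.15 were chosen after their values were seen. T28F4.4 is among the 5 most even, and was taken as an example of order after its values were seen. The members, gene groups and settings were chosen with earlier results of these data known. Alternatives were the other thresholded list, each replicate alone, a 50 bp overlap, gaps of up to 100 bp joined, a global IDR of at most 0.01, a q-value of at most 0.05, a minimum summit distance, start distances of 250 and 1000 bp, any summit or the midpoint, ranked or overlapping replicate peaks and, added after seeing the data, windows of 300 bp to each side of the strongest summit.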

Additional observations from a re-analysis of the deposited data

How the results depend on the processing

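The number of several-peak regions was 227 to 308 with either replicate left out, 257 to 287 under the other lists and overlaps, and 29 with a q-value of at most 0.05. Median spacing was 202 bp in the other thresholded list, under the q-value limit and with either replicate left out (202 to 202). The weakest summit was at 12.8% of the strongest in the other thresholded list, 13.7% with a 50 bp overlap, 15% with gaps of up to 100 bp joined and 41.9% under the q-value limit.

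The share at a gene start was 33.0 to 37.7% with either replicate left out, 22.9% within 250 bp and 42.4% within 1000 bp. Its difference from single-peak regions was -13.8 points under the q-value limit (-26.8 to 4.43) and -4.38 within 250 bp, and ran from -8.52 to -5.55 with either replicate left out. The X difference was 2.43 points in the other thresholded list and 2.27 to 6.13 with either replicate left out. The chromosome I difference, chosen after seeing the data, was 2.35 points in the other thresholded list and -2.18 to 0.580 with either replicate left out.

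Several summits in replicate 1 were found in 13.9% of regions of the other thresholded list, 41.4% under the q-value limit and 14.1% with its ranked list. For replicate 2 the values were 24.0, 65.5 and 18.3%. The share of pairs with the weaker summit at the higher coordinate, chosen after seeing the data, was 99.0% in the other thresholded list, 93.3% under the q-value limit and 99.1 to 99.7% with either replicate left out.

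Every peak already had a global IDR of at most 0.01 and no summits were under 50 bp apart, so those alternatives changed nothing. Why the other values moved was not tested beyond the smaller number of peaks the q-value limit leaves. No paired analysis was possible because there is 1 group. The q-value limit leaves 29 regions, so its intervals are wide, and no alternative adds depth, which is unknown.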

Other observations

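The ranked list of both replicates held 47 peaks with an IDR score of at least 830 that are absent from the conservative list, the strongest with a signal of 1376. None of them touched a several-peak region or another such peak. Piwi-interacting RNA genes lay near 7 several-peak and 79 single-peak regions (8.14% of them), and lincRNA genes near 2 and 21 (8.70%).

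The order of 2 summits could differ between lists. At T28F4.4 (I 7494250 to 7494845) replicate 1 had 54.4 and 60.1 from the lower to the higher coordinate, and replicate 2 had a single summit of 58.1. In the C30E1.9 region of the X chromosome from 16930815 to 16931764 replicate 1 had 42.2 and 69.4, and replicate 2 had 81.4 and 65.5. The weaker summit at srbc-38, a chemoreceptor gene (V 706448 to 707024, signals of 144 and 2.47), lay where 0% of 32-mers occur once in the genome.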
